A study of Mus musculus with 6 samples.

Results

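The 9 genes described here are Ehhadh, Acaa1a, Acaa1b, Hsd17b4, Crat, Crot, Pex11a, Abcd3 and Decr2, a set named for fatty acid oxidation in peroxisomes. Each was taken as the probe set that the platform annotation gives 1 gene symbol, and all 9 were found among the 18820 genes measured in that way, each on 1 probe set. No probe set with several symbols carried any of the 9 names. Liver was taken from 4 Pcyt2+/- mice (replicates 1 to 4) and from 2 wild type mice (replicates 3 and 4), all 2 months old and of C57BL6 background, and each mouse had its own array. The labels call the first group both knock-out and Pcyt2+/-, and the genotype field is followed here, so these mice have 1 altered Pcyt2 allele. How that allele was altered, the animals' sex and when they last fed are not stated in the labels. The comparison addressed which transcripts differ in the liver of mice deficient in Pcyt2, which makes the CDP-ethanolamine used in phosphatidylethanolamine synthesis.

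Peroxisomes shorten fatty acids that mitochondria handle poorly, above all very long-chain, branched and dicarboxylic ones. Acyl-CoA enters through ABC transporters of the membrane and is oxidised by an acyl-CoA oxidase. A bifunctional enzyme then hydrates and dehydrogenates it, and a thiolase cleaves off acetyl-CoA. The shortened chains and the acetyl groups leave as carnitine esters for the mitochondria. In rodent liver many of these genes are targets of PPARA, the nuclear receptor that responds to fatty acids and fasting.

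The deposited values are log2 signals made with RMA, per the submitters' processing notes, and most of the table lay in a narrow band just above 4, with array medians of 4.397 to 4.403. Of the 9 genes, 4 had a mean above 5 (Ehhadh, Crat, Crot and Decr2) and 5 had a mean at or below it, so the log2 differences of these 5 are small numbers beside a high floor. Between pairs of arrays Pearson r ran from 0.991 to 0.998 over the probe sets of the table, as a description. Its lowest value was that of Pcyt2+/- replicate 3 with wild type replicate 4. Pcyt2 itself was at 4.638, 4.657, 4.669 and 4.604 in Pcyt2+/- livers, against 4.887 and 4.796 in wild type livers, a difference of -0.20 (SE 0.028, limma adjusted p = 0.264). Of 8 measured hepatocyte markers 7 had a mean above 5. No measured Kupffer cell, endothelial, cholangiocyte, lymphocyte or adipocyte marker had a mean above 5, and 1 of 7 stellate cell and fibroblast markers did.

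For orientation, the start-site windows of 4 of the genes are printed here, 3 whose signal was lower on every Pcyt2+/- array (Ehhadh, Acaa1a, Acaa1b) and 1 whose values overlapped between genotypes (Crot). Each runs from 250 bases before to 50 bases after a RefSeq start site on build GRCm38.p6, 5′ to 3′ on the gene's strand. The capitals mark CCAAT, the box bound by NF-Y, or ATTGG, which is the same motif on the other strand. The windows lie at chr16:21787785-21788084 (Ehhadh, minus strand), chr9:119341044-119341343 (Acaa1a, plus strand), chr9:119157044-119157343 (Acaa1b, minus strand) and chr5:8997097-8997396 (Crot, minus strand).
Ehhadh: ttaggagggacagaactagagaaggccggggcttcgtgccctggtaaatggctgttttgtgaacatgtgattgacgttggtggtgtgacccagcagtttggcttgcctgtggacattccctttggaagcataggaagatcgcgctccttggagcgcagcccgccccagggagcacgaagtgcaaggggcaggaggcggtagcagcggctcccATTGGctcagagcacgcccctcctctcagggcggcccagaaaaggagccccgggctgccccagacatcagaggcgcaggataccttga
Acaa1a: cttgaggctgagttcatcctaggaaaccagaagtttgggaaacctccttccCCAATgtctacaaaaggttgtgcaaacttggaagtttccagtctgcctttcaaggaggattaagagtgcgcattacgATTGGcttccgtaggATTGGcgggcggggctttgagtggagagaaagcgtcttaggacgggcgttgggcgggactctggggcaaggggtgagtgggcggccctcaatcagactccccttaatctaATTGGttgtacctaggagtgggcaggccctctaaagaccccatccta
Acaa1b: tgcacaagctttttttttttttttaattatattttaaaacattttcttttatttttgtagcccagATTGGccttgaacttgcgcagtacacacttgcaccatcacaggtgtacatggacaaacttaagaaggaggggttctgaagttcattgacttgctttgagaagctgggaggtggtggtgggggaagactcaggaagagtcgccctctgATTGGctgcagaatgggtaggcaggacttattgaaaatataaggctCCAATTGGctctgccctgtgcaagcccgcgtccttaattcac
Crot: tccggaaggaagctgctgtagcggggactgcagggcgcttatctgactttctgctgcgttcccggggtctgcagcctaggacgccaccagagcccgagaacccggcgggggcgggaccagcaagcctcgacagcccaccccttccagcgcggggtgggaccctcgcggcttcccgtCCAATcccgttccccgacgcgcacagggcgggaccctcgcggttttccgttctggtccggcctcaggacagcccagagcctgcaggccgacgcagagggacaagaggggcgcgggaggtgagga

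Windows were at hand for 7 of the 9 genes (Ehhadh, Acaa1a, Acaa1b, Crot, Pex11a, Decr2, and Abcd3 with 2 start sites), 8 windows in all. CCAAT, searched on both strands, stood in 4 of the 8, and 37.4% of all 32851 windows of that length held it. The Acaa1a and Acaa1b windows each held 4 matches, of which 2 overlap in the CCAATTGG of Acaa1b, and the Ehhadh and Crot windows held 1 each. The GC box GGGCGG stood in 5 of the 8 windows and in 35.7% of all. The PPARA-type direct repeat was searched on both strands as AGGTCANAGGTCA and, more loosely, as AGGNCANAGGNCA, which 0.0396% and 0.381% of all windows held, and neither spelling was in the 8 windows. The single half-site AGGTCA was in none of the 8 either, against 16.3% of all windows. At the shares of the direct repeat, 8 windows would seldom hold it, and sites further from the start site were not searched. Nothing about PPARA sites of these genes is drawn from this absence. Acaa1a and Acaa1b encode near-identical thiolases, but their windows matched at 167 of 262 paired bases in a global alignment, and those of Ehhadh and Acaa1a at 169 of 264.

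In Pcyt2+/- liver 8 of the 9 genes had a signal below both wild type values on each of the 4 arrays, and Crot, the carnitine octanoyltransferase, was the exception. All 9 had a lower mean, against 51.9% of all genes, with a median log2 difference of -0.17 (range -0.51 to -0.017) where the median over all genes was -0.00073. The difference was furthest from 0 for Ehhadh, the peroxisomal bifunctional enzyme, at a ratio of 0.704 to wild type. No gene of the 9 passed limma over 18820 genes at an adjusted p under 0.05, and neither did any other gene (0% of all genes). With an unadjusted p under 0.05, 8 of the 9 were lower, against 3.44% of all genes (648), and 0 were higher, against 1.86% of all genes (350). The count of 8 that lay below both wild type arrays stands against 7.17% of all genes. Brighter genes were called more often, so the share was also taken over the 5848 genes with a mean above 4.5, a bound under which none of the 9 lies and which was chosen after seeing the data. There 7.28% were lower at an unadjusted p under 0.05, and 10.3% lay below both wild type arrays. Since earlier results of these data were known when the 9 were chosen, their count is a description and not independent evidence. In whole liver a smaller share of hepatocytes and less RNA per hepatocyte cannot be told apart.

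**Figure D1:**
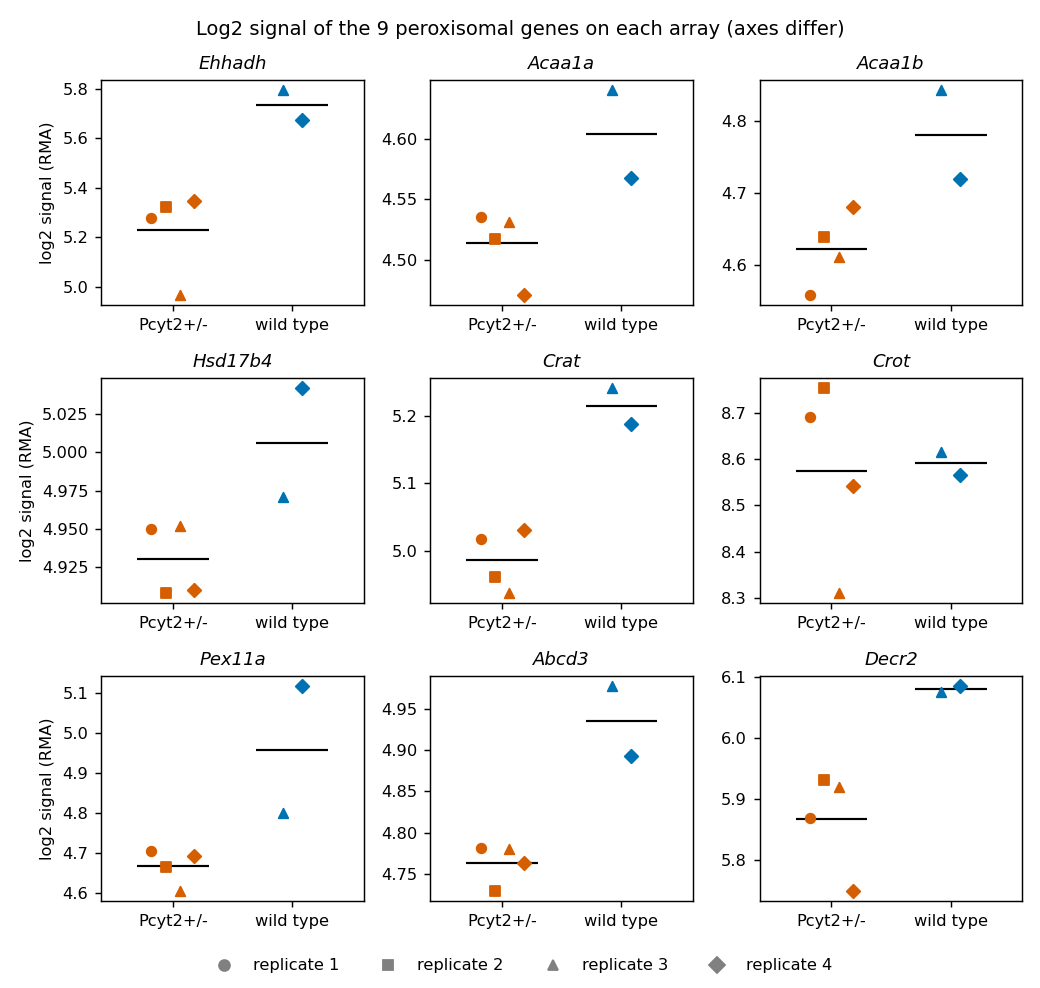
Log2 signal of each gene (y axis, RMA values, a separate scale per gene) on the 4 Pcyt2+/- arrays (orange) and the 2 wild type arrays (blue). Marker shapes give the replicate and horizontal lines the group means. In 8 panels all orange points lie below both blue points, and in the Crot panel they lie on both sides.

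Import and membrane genes came first in the pathway. Abcd3 encodes the 70 kDa peroxisomal membrane protein, a transporter of acyl-CoA and bile acid precursors. It was at 4.78, 4.73, 4.78 and 4.76 in Pcyt2+/- livers, against 4.98 and 4.89 in wild type livers. The Pcyt2+/- values lay within a range of 0.052 and all below the wild type ones. The difference was -0.17 (SE 0.026, 95% interval -0.23 to -0.11, limma adjusted p = 0.311), and Abcd3 had the rank 20 among all genes by unadjusted p. Pex11a, which elongates the peroxisomal membrane before division, was at 4.705, 4.667, 4.605 and 4.694 in Pcyt2+/- livers, against 4.800 and 5.118 in wild type livers. The wild type pair was far apart, with replicate 4 the higher. Its difference was -0.29 (SE 0.079, adjusted p = 0.734), and leaving out a wild type array gave -0.13 (replicate 4 left out) or -0.45 (replicate 3 left out).

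The chain-shortening enzymes included both bifunctional proteins and both thiolases. Ehhadh, the L-bifunctional enzyme that acts on straight-chain and dicarboxylic acyl-CoA, was at 5.28, 5.32, 4.96 and 5.35 in Pcyt2+/- livers, against 5.79 and 5.67 in wild type livers. Pcyt2+/- replicate 3 was the lowest by a wide margin, and the other 3 were close together and still below both wild type arrays. The group means were 5.23 ± 0.18 (SD, n = 4) in Pcyt2+/- and 5.73 ± 0.086 (SD, n = 2) in wild type. The difference was -0.51 (SE 0.11, 95% interval -0.76 to -0.25, limma adjusted p = 0.529), the rank 19 of 18820 counted from the most negative. Without Pcyt2+/- replicate 3 it was -0.42, and the adjusted p was 0.127. Hsd17b4, the D-bifunctional enzyme needed for branched chains and bile acid side chains, was at 4.95, 4.91, 4.95 and 4.91 in Pcyt2+/- livers, against 4.97 and 5.04 in wild type livers. The gap between the groups was 0.019, and the difference of -0.076 (SE 0.024, adjusted p = 0.817) became -0.041 without wild type replicate 4.

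The thiolases Acaa1a and Acaa1b make the last cut of each round. Acaa1a was at 4.54, 4.52, 4.53 and 4.47 in Pcyt2+/- livers, against 4.64 and 4.57 in wild type livers. Acaa1b was at 4.56, 4.64, 4.61 and 4.68 in Pcyt2+/- livers, against 4.84 and 4.72 in wild type livers. In neither gene did the groups overlap, and the wild type values differed from each other by more than the gap to the nearest Pcyt2+/- value. The differences were -0.090 (SE 0.026, limma adjusted p = 0.779) for Acaa1a and -0.16 (SE 0.042, limma adjusted p = 0.714) for Acaa1b. Without wild type replicate 3 they were -0.054 and -0.097. Both transcripts are close copies, and it is not known here whether each probe set measures only its own transcript, so the counts, which take them as 2 genes, may include the same signal more than once.

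Decr2, the peroxisomal 2,4-dienoyl-CoA reductase, prepares unsaturated chains for the cycle. It was at 5.87, 5.93, 5.92 and 5.75 in Pcyt2+/- livers, against 6.08 and 6.09 in wild type livers. Both wild type values were nearly the same, and the highest Pcyt2+/- value lay 0.14 below the lower of them. The difference was -0.21 (SE 0.049, 95% interval -0.33 to -0.097, limma adjusted p = 0.607).

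The carnitine acyltransferases, which make the products of peroxisomal oxidation ready for export, had unlike values. Crat, the acetyltransferase found in both peroxisomes and mitochondria, was at 5.02, 4.96, 4.94 and 5.03 in Pcyt2+/- livers, against 5.24 and 5.19 in wild type livers. The Pcyt2+/- values spanned 0.094 and the gap to wild type was 0.16. The difference was -0.23 (SE 0.030, 95% interval -0.30 to -0.16, limma adjusted p = 0.219), the rank 11 among all genes by unadjusted p. Crot, which acts on medium chains, was at 8.69, 8.75, 8.31 and 8.54 in Pcyt2+/- livers, against 8.62 and 8.57 in wild type livers. Pcyt2+/- replicates 1 and 2 were above both wild type arrays, and replicates 3 and 4 below them. Its difference was -0.017 (95% interval -0.29 to 0.25, limma adjusted p = 0.997). It was 0.071 without Pcyt2+/- replicate 3. With the replicate number as a block, where only replicates 3 and 4 of both genotypes bear on the difference, it was -0.17 (unadjusted p = 0.111, limma adjusted p = 0.914). That fit has 1 residual degree of freedom, and the labels give no pairing. The median of the 9 genes in that fit, -0.17, is Crot's own value, so the 2 cannot be set against each other. The 95% interval with all arrays does not show that Crot was alike in both genotypes. The difference between Crat and Crot in response was not tested.

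**Figure D2:**
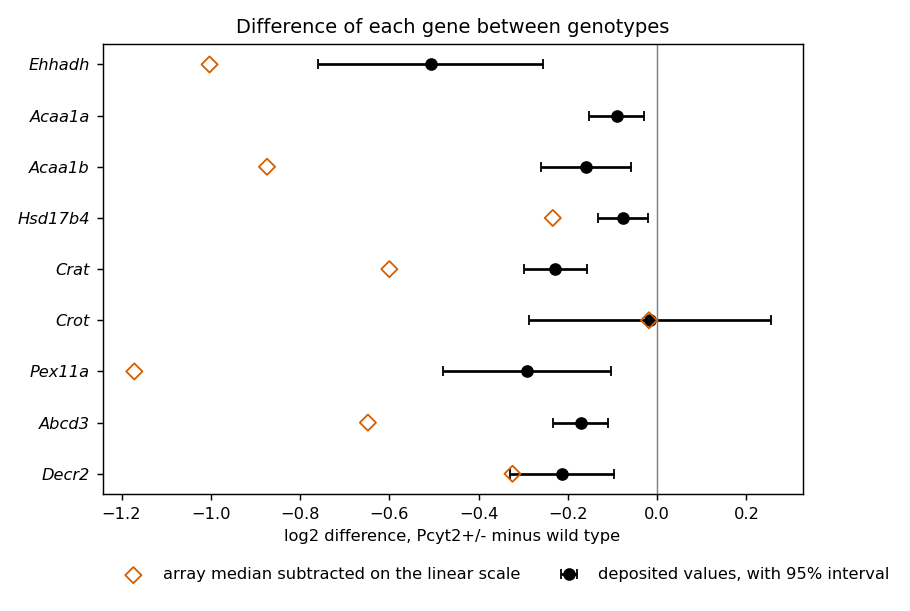
Log2 difference of each gene, Pcyt2+/- minus wild type (x axis), from the deposited values with limma's 95% interval (black) and after the array median was subtracted on the linear scale (orange diamonds, no interval drawn, not computed for Acaa1a). The black intervals lie below 0 for 8 genes, and that of Crot runs from -0.29 to 0.25.

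The exact permutation test over the 15 ways to split 6 arrays into 4 and 2 gave a two-sided p of 0.0667 for each of these 8 genes, the smallest that this design can give, and of 0.933 for Crot. That test cannot reach 0.05 here. Over the 9 genes, the median deviation from the wild type mean was -0.20, -0.15, -0.17 and -0.17 for Pcyt2+/- replicates 1 to 4 in turn, all set against the same mean of 2 wild type arrays. The lowest deviation of a single gene was -0.77 in Pcyt2+/- replicate 3 (Ehhadh) and -0.39 in Pcyt2+/- replicate 4. Pcyt2+/- replicate 3, which correlated least with the others, had the lowest value of its group in 4 genes (Ehhadh, Crat, Crot and Pex11a), and replicates 1, 2 and 4 had it in 1, 2 and 2 genes. Without replicate 3, the number lower at an unadjusted p under 0.05 was again 8, against 3.37% of all genes. Between the wild type arrays, replicate 3 was the higher in 6 genes and replicate 4 in 3. With wild type replicate 3 left out, 6 genes were lower at an unadjusted p under 0.05, against 3.95% of all genes, Acaa1a and Acaa1b no longer among them, and the median difference was -0.13. With wild type replicate 4 left out, 7 were lower, against 4.56% of all genes, Hsd17b4 no longer among them, and the median difference was -0.21.

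**Figure D3:**
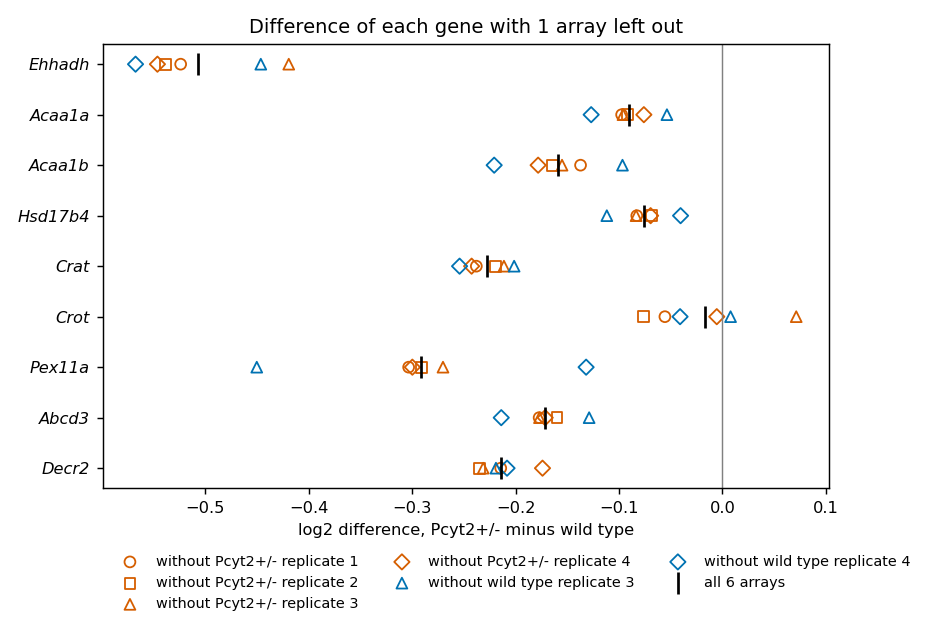
Log2 difference of each gene, Pcyt2+/- minus wild type (x axis), with all 6 arrays (black bar) and with 1 array left out (open symbols, orange for a Pcyt2+/- and blue for a wild type array). Pex11a ran from -0.45 to -0.13, and Crot from -0.076 to 0.071, the 1 gene with values on both sides of 0.

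Because most of these genes lie close to the floor of the array, the signal above each array's median was also computed on the linear scale. On that scale Ehhadh had 17.7, 18.9, 10.1 and 19.5 units in Pcyt2+/- livers, against 34.36 and 29.97 units in wild type livers, or 51.4% of the wild type mean. Pex11a was at 42.3% of wild type, Acaa1a at 53.6%, Acaa1b at 55.01%, Abcd3 at 63.7% and Crat at 66.1%. Acaa1a had only 1.04 to 2.08 units in Pcyt2+/- livers, against 3.78 and 2.63 units in wild type livers, too little for the fit on this scale. Without wild type replicate 3 Acaa1a was at 65.3% and Acaa1b at 66.9%, and without wild type replicate 4 at 45.5% and 46.7%. The value of Pex11a rests on wild type replicate 4 and was 64.3% without it, above that of Ehhadh, which was then 48.2%. Decr2 was at 80.1%, Hsd17b4 at 84.9% and Crot at 99.5%. The order of the genes thus differs from that of the deposited log2 values, where Pex11a follows Ehhadh. The log2 differences were -1.003 for Ehhadh, -1.17 for Pex11a, -0.87 for Acaa1b, -0.65 for Abcd3 and -0.60 for Crat, and none passed limma over the 3248 genes of that scale (adjusted p from 0.139 for Abcd3 to 0.985 for Crot). Pcyt2 itself, at -0.20 in the deposited values, had -0.97 on that scale (limma adjusted p = 0.0671). These larger values rest on the array median as the background, whose level was not measured separately.

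**Figure D4:**
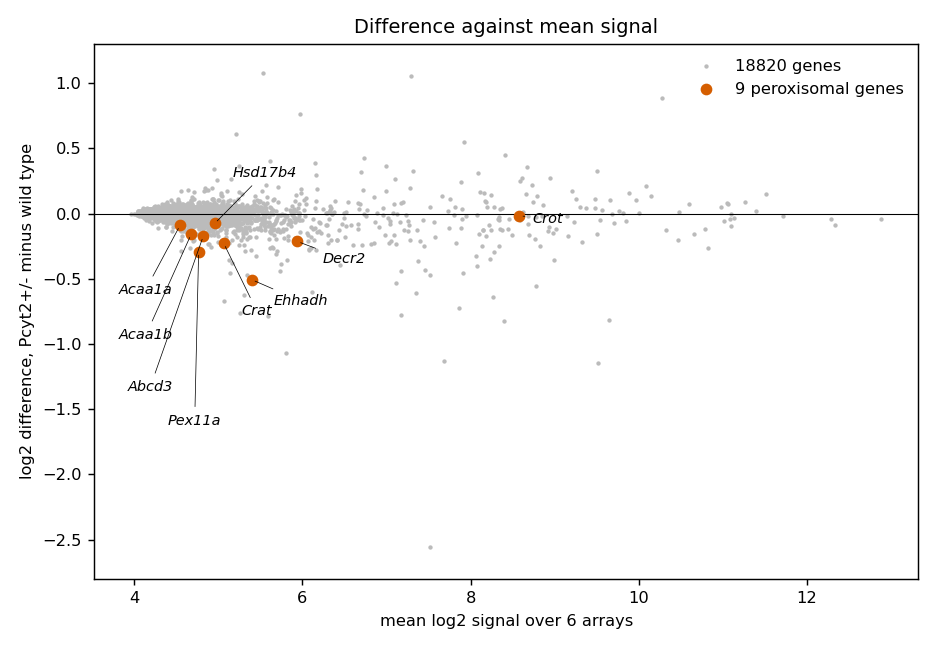
Log2 difference, Pcyt2+/- minus wild type (y axis), against the mean log2 signal over all 6 arrays (x axis) for 18820 genes (grey) and the 9 peroxisomal genes (orange). Of the 9, 8 lie along the lower side of the grey cloud at low signal, and Crot lies near 0 at high signal.

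Other genes of peroxisomal fatty acid oxidation were found on both sides of 0. Of 24 measured genes of that list, 4 were lower and 2 were higher with an unadjusted p under 0.05, 18 were neither, 0 passed over all genes, and the median difference was -0.017. The lower ones were Acad11 (-0.26), an acyl-CoA dehydrogenase of hydroxylated chains, Phyh (-0.25), which starts alpha-oxidation of phytanic acid, Ech1 (-0.18) and Eci2 (-0.031), which move double bonds. The higher ones were Amacr (0.094) and Acot6 (0.029). Nudt7 had the largest difference of the list, 0.32 (SE 0.15, limma adjusted p = 0.936), and its wild type values were far apart, at 6.21 and 6.76. Scp2, the thiolase and carrier for branched chains, had -0.21 (SE 0.16, limma adjusted p = 0.956), and 0.025 without wild type replicate 4. Acox2, the oxidase for branched chains and bile acid precursors, had -0.038, and 0.0046 without wild type replicate 4. Without Pcyt2+/- replicate 4 the number of lower genes in this list was 1, and without wild type replicate 4 it was 2.

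Peroxisome biogenesis genes, the import and membrane assembly factors, had 0 of 15 lower and 0 of 15 higher with an unadjusted p under 0.05 by limma, and 0 passed over all genes. Their median was -0.012. The 4 with the smallest p were Pex13 (-0.036) and Pex10 (-0.036), of the import complex, Fis1 (-0.026), of division, and Pex6 (-0.017), of receptor recycling. All 15 had a mean below 5, where log2 differences are small numbers beside a high floor. Of these 15, 6 had a mean below that of the median gene, and 0 of the 9 genes had, so the 2 lists differ in signal. How far the floor bears on the count of biogenesis genes was not tested. The number lower was 1 when Pcyt2+/- replicate 1 or wild type replicate 3 was left out, and 2 when wild type replicate 4 was. Of 18 measured peroxisomal enzymes outside fatty acid oxidation, 3 were lower and 1 was higher with an unadjusted p under 0.05, 14 were neither, and 0 passed over all genes. Uox, the urate oxidase, had -0.28, Ephx2, the soluble epoxide hydrolase, -0.26, and Pipox, which oxidises pipecolic acid, -0.085. Cat, the catalase that removes the hydrogen peroxide of the oxidases, was on the higher side with 10.62 ± 0.030 (SD, n = 4) in Pcyt2+/- and 10.55 ± 0.040 (SD, n = 2) in wild type. Its limma unadjusted p was 0.0203, and stayed under 0.05 with quantile normalization and median centring. It was 0.121 among genes with a mean above 5, 0.403 with the array median subtracted and 0.476 with a trended and robust prior.

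The mitochondrial pathway was mostly on the lower side. Of 15 measured genes of mitochondrial import and beta-oxidation, 13 were lower and 0 were higher with an unadjusted p under 0.05, 0 passed over all genes, and the median was -0.085. Those with the smallest p were Acadl (-0.14), the long-chain dehydrogenase, Hadhb (-0.083), of the trifunctional protein, Eci1 (-0.085), an enoyl-CoA isomerase, and Cpt1a (-0.20), the gate of mitochondrial import. Acadl had an adjusted p of 0.176 in limma, and of 0.0407 with a trended and robust prior. Decr1, the mitochondrial dienoyl-CoA reductase, had -0.069 at a mean signal of 4.53, and Decr2 had -0.21 at a mean of 5.94. Decr1 lies closer to the floor, so these log2 differences cannot be ranked against each other. Acaa2, the mitochondrial thiolase, had -0.015, and 0.017 with wild type replicate 3 left out. In this list 5 of 15 were lower when wild type replicate 4 was left out. The 2 lists were not tested against each other.

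**Figure D5:**
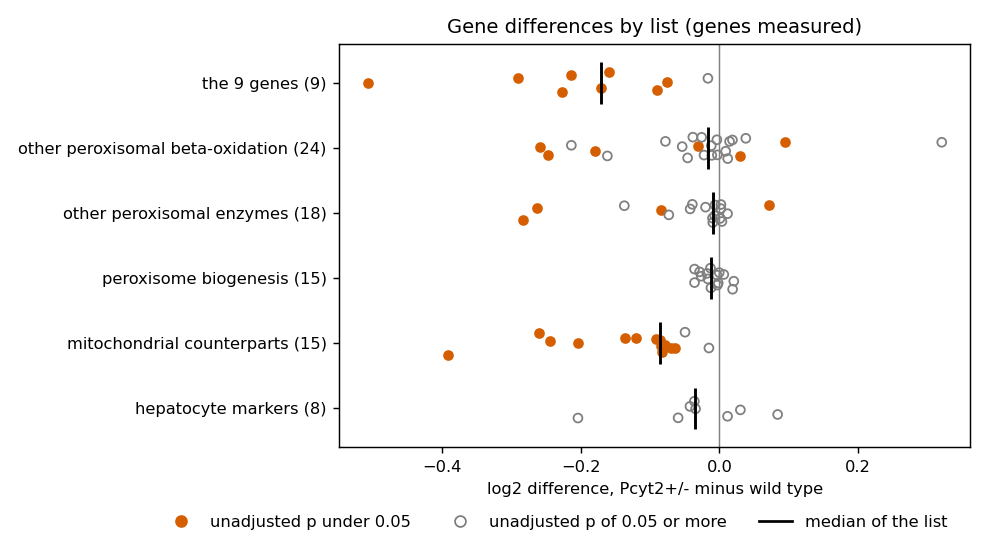
Log2 difference of each gene, Pcyt2+/- minus wild type (x axis), by list, with filled points for an unadjusted p under 0.05, open points for the others and a bar at the list's median. The median was -0.17 for the 9 genes, -0.085 for the mitochondrial genes and between -0.035 and -0.0098 for the other 4 lists.

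Among PPARA, its partners and its targets outside peroxisomes, 4 of 15 measured genes were lower and 0 were higher with an unadjusted p under 0.05, and 0 passed over all genes. Ppara itself was at 5.15 ± 0.059 (SD, n = 4) in Pcyt2+/- and 5.21 ± 0.050 (SD, n = 2) in wild type. Cyp4a14 and Cyp4a31, fatty acid omega-hydroxylases that feed dicarboxylic acids to peroxisomes, had -2.56 and -1.15, both with a limma adjusted p of 0.130. Their adjusted p was under 0.05 in some other settings, 0.0341 for both among genes with a mean above 5, 0.0248 and 0.0287 with the array median subtracted, and 0.00397 and 0.0165 with a trended and robust prior. Acot1, a cytosolic acyl-CoA thioesterase, had -0.040 and Ppargc1a, a coactivator of PPARA, -0.033, both at the low end of the array. Ppargc1a has 2 probe sets, and with the mean of its rows the difference was -0.011 (limma unadjusted p = 0.316). Its place among the lower genes thus rests on the brighter probe set. The hepatocyte markers had 0 of 8 lower and 0 of 8 higher with an unadjusted p under 0.05, with a median of -0.035, and their summed linear signal ran from 14496 to 15540 units in Pcyt2+/- and from 14491 to 16188 units in wild type livers. For markers of the other 6 cell types, 0 genes were lower or higher at that p and 0 passed over all genes, with medians from -0.0068 to 0.0043. Of 7 pericentral markers 2 were lower and 0 higher, and of 4 periportal markers 1 was lower and 1 higher. Clock and handling genes had 0 lower and 1 higher of 8 measured. All 8 lay near the floor, with values of 4.31 to 4.57, so this count says little about the clock. The part of collection time in the differences was not tested. The 4 sex-linked genes measured had values of 4.18 to 4.39 on all arrays, below the array medians, and do not tell the sex of the mice.

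The genes with the most similar course over the 6 arrays were sought for the 3 members that varied most (Ehhadh, Pex11a and Crot), by the root mean square difference of log2 values centred on each gene's mean, among 788 genes with a mean above 5. For Ehhadh they were Slc38a4 (0.091), Hadh (0.095) and Hpd (0.11). For Pex11a they were Slc7a2 (0.045), Aass (0.052) and Etfb (0.053). For Crot they were Ggact (0.042), Hibadh (0.059) and Aqp9 (0.062). Slc38a4, an amino acid transporter, was at 7.34, 7.30, 7.01 and 7.35 in Pcyt2+/- livers, against 7.58 and 7.64 in wild type livers, with replicate 3 the lowest as in Ehhadh. Ggact, a gamma-glutamylamine cyclotransferase, was at 5.83, 5.86, 5.48 and 5.77 in Pcyt2+/- livers, against 5.73 and 5.76 in wild type livers. Its values overlapped between genotypes as those of Crot did, but replicate 4 lay above both wild type arrays in Ggact and below both in Crot.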

How the data were processed

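Total RNA of snap-frozen liver was hybridised to Affymetrix arrays, per the labels' protocols. The authors deposited log2 expression values made with RMA, per the submitters' processing notes, for 28996 probe sets and 6 arrays. The RMA version and genome build are not given in the sources used here. Of the probe sets 21218 had 1 gene symbol, 1881 several and 5897 none in the platform annotation, and the row with the highest mean stood for a gene, which left 18820 genes. Differences (Pcyt2+/- minus wild type) came from a linear model fitted by limma (version 3.58.1, under R version 4.3.3; lmFit, then eBayes; two-sided; no covariates), with Benjamini-Hochberg adjustment over all 18820 genes at 0.05. The steps were tested on simulated data. Permutation tests, motif searches and figures used Python 3.11.15, scipy 1.17.1, biopython 1.88 and matplotlib 3.10.9. Promoter windows are from RefSeq, build GRCm38.p6.

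The 9 genes, the lists and the settings were chosen with earlier results of these data known. Named were the 9 genes, Pcyt2, up to 4 genes of smallest unadjusted p per peroxisomal, mitochondrial and PPARA list, Scp2, Acox2, Acaa2, Decr1, Ppara, Cyp4a14 and the 3 nearest genes of each of 3 members. Amacr, Acot6 and Nudt7 were added to show the higher side of their list. For marker, sex-linked and clock lists no single gene is named. Arrays have no sequencing depth, so their number limits the precision. The labels number the mice but do not say that equal numbers share a litter or batch, and p-values measure the spread between these mice only.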

Additional observations from a re-analysis of the deposited data

Results flagged for a closer look

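Among the 4 Pcyt2+/- arrays, Slc38a4 on that of replicate 3, at 7.01, lay far below the other 3 values (7.30 to 7.35), past Dixon's 95% bound. It was the 1 of 44 genes examined for such a value. Slc38a4 was named because its course was closest to that of Ehhadh, in which replicate 3 is low too, so the rate of about 1 in 20 that chance gives does not apply to it. Ehhadh, on the same array, had a ratio of gap to range of 0.823, just under the bound.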

How the results depend on the processing

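Under each of the 10 other settings and with each of the 6 arrays left out, none of the 9 genes passed an adjusted p under 0.05. These settings were a brightness filter, all rows in 1 fit, the mean of rows, quantile normalization, median centring, the array median subtracted, another prior, no moderation, array weights and a replicate block. Over all genes tested, where 0 passed in the deposited values, 3 passed with the brightness filter, 3 with the array median subtracted, 9 with the other prior, 2 with the replicate block, and 0 to 9 with 1 array left out. Cyp4a31 also passed with the replicate block (adjusted p = 0.0410) and without Pcyt2+/- replicate 2, and Cyp4a14 without Pcyt2+/- replicate 3. With the brightness filter (a mean above 5) 4 of the 9 were left, of which 3 were lower at an unadjusted p under 0.05 (8.71% of the 792 genes left) and 3 lay below both wild type arrays (15.3%), with a median of -0.22. Crat is among the 3 and passed the filter only through wild type (4.99 in Pcyt2+/-, 5.21 in wild type), so these values support nothing. The median was -0.62 with the array median subtracted, and with 1 array left out it ran from -0.21 to -0.13, while the number lower ran from 6 to 8. With the replicate block, for which the labels give no pairing, 6 were lower at an unadjusted p under 0.05 (3.73% of all genes) and the median was -0.17. The number of other peroxisomal fatty acid oxidation genes lower was then 7 against 4, and of other peroxisomal enzymes 6 against 3. Deviations correlated at 0.15 and 0.072 between the same-numbered arrays 3 and 4. Between Pcyt2+/- replicate 1 and wild type replicate 4, whose numbers differ, the value was 0.19. The deviations of the 2 wild type arrays mirror each other, so each Pcyt2+/- array correlates positively with 1 of them, and these values cannot show a pairing. For the mitochondrial list the number lower was 6 of 15 without moderation. Crot moved most with the replicate block, to -0.17. In other settings signs turned for Crot (0.00021 with array weights, and -0.076 to 0.071 with 1 array left out) and Ggact (0.035 with quantile normalization, 0.0078 with array weights, and -0.051 to 0.076 with 1 array left out). With 1 array left out the difference ran from -0.047 to 0.017 for Acaa2, from -0.053 to 0.00073 for Fis1, from -0.45 to 0.025 for Scp2 and from -0.081 to 0.0046 for Acox2, and the cause was not tested. Fits without 1 wild type array assume that the other varies like the Pcyt2+/- arrays.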
